A study of Mus musculus with 12 samples.

Results

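CH12F3-2A cells come from a mouse B lymphoma, bear IgM, and can be made to switch to IgA in culture. The response described here is that of control-guide cells of this line to a mixture of 3 stimuli, called CIT: 1 μg/ml anti-CD40L, 20 ng/ml mouse IL-4 and 1 ng/ml human TGF-β, present for 24 h. It rests on 6 of the 12 RNA libraries of the study, 3 from unstimulated cells (sgCtr_no) and 3 from stimulated cells (sgCtr_CIT), chosen by their labels alone. Cells of both groups had been transfected with a pX459 plasmid, which carries Cas9, a guide and puromycin resistance, and had passed through 72 h of puromycin selection, so that the unstimulated controls are not untouched cells. Their guide was non-targeting (sgCtr). The other 6 libraries are the same pair of states with a guide against Nop16 (sgNop16), a nucleolar protein whose part in class switch recombination is the question of the study. The labels name 1 cell line and call the replicates biological. No group received a single agent of the mixture or a later or earlier harvest, so no change below can be assigned to CD40, IL-4 or TGF-β alone or placed in time.

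The 3 stimuli imitate signals that a B cell receives when it switches isotype. CD40 recruits TRAF adaptors and releases NF-κB, partly through the kinase NIK, which stabilises when TRAF3 is lost. The IL-4 receptor acts through JAK kinases and STAT6, and CISH and SOCS proteins are made in return and limit cytokine receptors. TGF-β activates SMAD factors, which raise their own inhibitors and, together with RUNX factors, the germline transcript of the α constant gene. Recombination between switch regions cuts both strands of DNA, and end joining factors then seal the breaks.

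RNA levels are given in CPM, counts scaled to the size of the library, as mean ± SD over 3 libraries or library by library in replicate order. Changes are log2 differences of CIT against no stimulation, ± SE, from edgeR's quasi-likelihood test on all 16794 genes with enough counts. A gene is called higher or lower where its Benjamini-Hochberg adjusted p over those genes was under 0.05. CPM is a share of the library, so a fall may be less RNA of that gene or more of others, and fewer cells of a kind cannot be told apart from less RNA per cell. Total counts were 39690555 to 47175155 per library without CIT and 43204940 to 47080816 with it. Mitochondrial genes held 2.95 to 3.08% of the counts in both states. The first principal component of the 6 libraries held 51.3% of the variance and separated the states. Of 7 B cell markers all were found, with a summed level of 1670 to 1710 CPM without and 1780 to 1790 CPM with CIT. The T cell markers Cd3e, Cd3g and Cd8b1, the macrophage markers Lyz2 and Cd14 and the epithelial marker Epcam were listed at 0 in all 6 libraries. Other members of the T cell list were found. The summed level of its 8 markers was 9.16 CPM at the lowest, without CIT, and 14.2 CPM at the highest, with CIT. Of the 5 NK cell markers, Ncr1, Klrb1c, Klrd1 and Gzma were listed at 0 in all 6 libraries. The sum of the NK list, 9.26 to 11.8 CPM over both states, was therefore that of Prf1. The part of T and NK cell markers in the results was not tested. The summed level of 6 macrophage and monocyte markers was 1.20 to 2.10 CPM without and 4.35 to 5.92 CPM with CIT, and its part in the results was not tested.

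The response was broad and mostly shallow, with a steep tail upwards. Of 16794 genes, 7007 (41.7%) were called, 3456 (20.6%) higher and 3551 (21.1%) lower. Among these, 4525 changed by less than 1.5-fold and the median absolute log2 change was 0.42. The 2 directions parted with size: 1072 genes (6.38%) rose at least 2-fold and 335 (1.99%) fell at least 2-fold, and 465 against 102 passed 4-fold. Many of the steep rises started from little RNA, since 517 of the 1072 were under 1 CPM without CIT, and 37 were at 100 CPM or more. Of the 335 that fell at least 2-fold, 41 were under 1 CPM without CIT and 48 at 100 CPM or more. The median log2 change over all tested genes was 0.02, and list medians below are to be read beside it. Counts of called list members are to be read beside the shares of all tested genes, 20.6% higher and 21.1% lower. The shares of protein-coding genes, given next, also belong beside them. Protein-coding genes were called in both directions alike, 3097 of 12208 higher (25.4%) and 3268 lower (26.8%). Processed pseudogenes, whose reads can belong to their parent genes, were called lower in 115 and higher in 27 of 1382 cases.

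**Figure D1:**
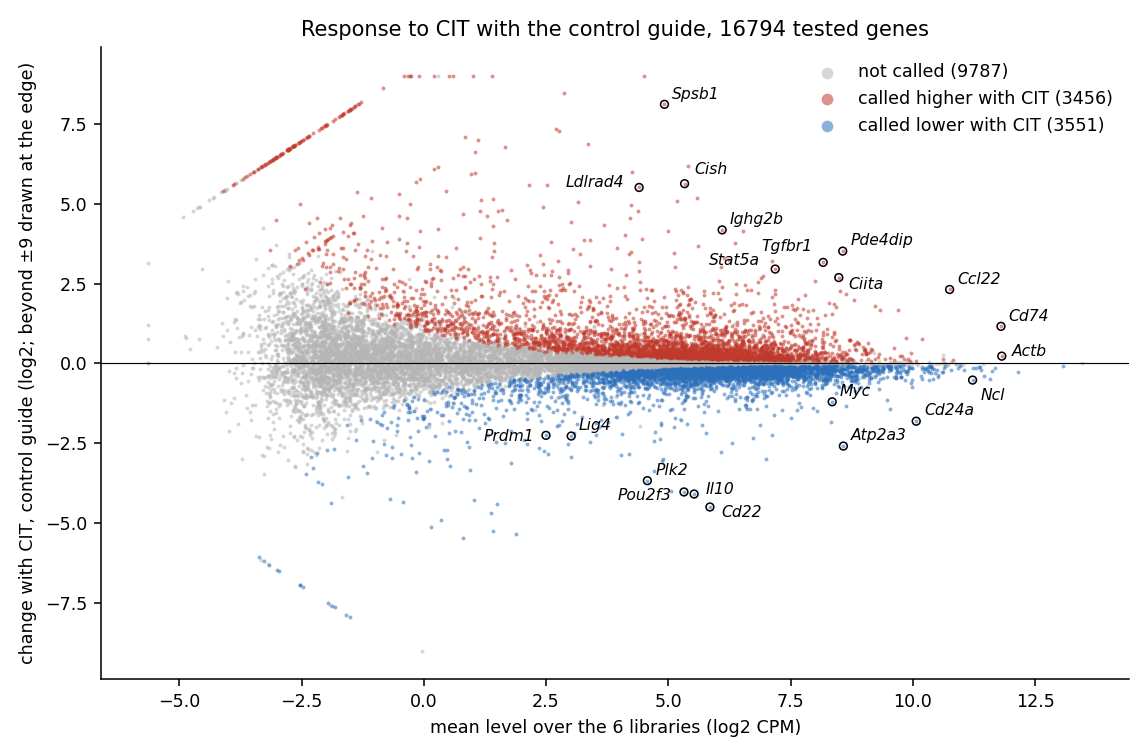
Mean level of each of the 16794 tested genes (log2 CPM over the 6 libraries, horizontal axis) against its log2 change after CIT (vertical axis), with called genes in colour and genes named in the text labelled. The steep rises gather at low and middle levels, and Cd74, Actb and Ncl, the labelled genes farthest right, have log2 changes of 1.16, 0.23 and -0.52.

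Several genes of end joining fell among the switch recombination factors. Among 49 tested factors, 9 (18.4%) were called higher and 16 (32.7%) lower, with a median log2 change of -0.08. Those shares lie not far from the 25.4% and 26.8% of all tested protein-coding genes, so the counts do not set the list apart. Lig4, the ligase of classical end joining, stood at 15.5, 11.2 and 13.4 CPM without CIT and 2.86, 2.95 and 2.46 CPM with it, with every stimulated library below the others (log2 change -2.28 ± 0.17, adjusted p = 1.69e-10). Shallower falls were called for the Ku genes Xrcc5 (-0.54 ± 0.06) and Xrcc6 (-0.40 ± 0.05), for the end-processing nuclease Artemis (Dclre1c, -0.39 ± 0.10) and for the uracil glycosylase Ung (-0.34 ± 0.05). Apex2, an endonuclease of abasic sites, rose by a log2 change of 0.55 ± 0.11 while its relative Apex1 fell, at -0.33 ± 0.04.

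Of the 8 tested heavy chain constant genes, 7 were called higher and 1 lower. The α gene Igha, the target of the switch in this line, stood at 968, 942 and 961 CPM without CIT and 978, 1029 and 990.4 CPM with it, and its called change was small, 0.06 ± 0.02. The call was lost without replicate 2 or 3 of sgCtr_no or replicate 2 or 3 of sgCtr_CIT, where the adjusted p was 0.0521 to 0.254, and with no filter on low counts (adjusted p = 0.112). The μ gene Ighm fell slightly, from 2530 to 2279 CPM (-0.15 ± 0.02). The γ2b gene Ighg2b rose from 7.197 to 130.0 CPM (4.18 ± 0.09, adjusted p = 4.86e-18). Counts per gene do not separate germline from switched transcripts, and the γ genes resemble each other, so the division of reads among them is uncertain. Of 9 tested genes of a list of light chain, J chain and surrogate light chain genes with other partners of the receptor, 4 were called lower and 1 higher, with a median log2 change of -0.02 and a sum of 2080 CPM without and 1969 CPM with CIT. Among them Iglc1 fell from 17.5 to 8.05 CPM (-1.12 ± 0.14), Iglc2 from 417 to 280.5 CPM (-0.57 ± 0.03) and Jchain, which joins the units of secreted IgM and IgA, from 16.1 to 9.59 CPM (-0.74 ± 0.13). Iglc1 and its neighbours are also alike in sequence.

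In the CD40 arm the receptor gene, the NIK kinase gene and several inhibitors of NF-κB rose. Of 32 tested receptor, TRAF and NF-κB signalling genes, 20 were called higher and 3 lower, with a median log2 change of 0.27. Cd40 itself stood at 69.9, 67.3 and 67.2 CPM without CIT and 168, 172 and 172 CPM with it, with the groups well apart (1.32 ± 0.04, adjusted p = 2.22e-17). Map3k14, the gene of NIK, rose from 19.2 ± 0.391 to 56.9 ± 2.15 CPM (1.56 ± 0.07, adjusted p = 1.7e-14). Traf3, which marks NIK for destruction, moved less, at 0.14 ± 0.05. That call was lost without replicate 1 or 3 of sgCtr_no or replicate 1 or 2 of sgCtr_CIT (adjusted p = 0.0515 to 0.165). Traf1, an NF-κB-induced adaptor, rose from 22.2 to 44.8 CPM (1.01 ± 0.08), and Traf5 from 22.9 to 37.2 CPM (0.70 ± 0.08).

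Among the inhibitors of NF-κB, Nfkbia, which encodes IκBα, stood at 194, 186 and 197 CPM without CIT and 372, 389 and 389 CPM with it. It rose 1.99-fold (log2 change 0.99 ± 0.03, adjusted p = 1.52e-17), and no library of 1 group reached the other. Nfkbie (IκBε) rose from 114 to 283 CPM (1.31 ± 0.04), the nuclear IκB proteins Nfkbiz from 29.00 to 86.4 CPM (1.57 ± 0.08) and Bcl3 from 22.4 to 56.9 CPM (1.34 ± 0.07), and Tnfaip3, the A20 enzyme that restrains the pathway, from 122 to 189 CPM (0.64 ± 0.03). The family was not uniform, since Nfkbib (IκBβ) and Nfkbid fell, by log2 changes of -0.28 ± 0.07 and -0.33 ± 0.06, as did the ubiquitin ligase gene Birc3 (-0.31 ± 0.06). Of the subunits, Rel rose most, from 193 to 293 CPM (0.61 ± 0.03), then Nfkb1 (0.59 ± 0.03), Nfkb2 (0.36 ± 0.03) and Relb (0.19 ± 0.04), and Rela was not called (-0.03 ± 0.05).

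Several of these risen genes carry a κB-type motif close to their start. The motif searched was GGG and TTTCC parted by 2 bases of any kind, on both strands, in RefSeq promoters of mouse build GRCm38.p6 from 250 bases before to 50 after the start. Of 13075 promoters of tested genes 1.74% held it. Among promoters of genes called at least 2-fold higher 3.08% did, and among those at least 2-fold lower 2.59%. Of the 38 promoters found for 26 genes of this list 12 did, from 9 genes (31.6%). No match was found for Cd40, Map3k14, Nfkbie, Nfkbiz, Bcl3 or Traf1, which rose more steeply than the genes shown. Promoters were not found for every gene of the list. The stretches around it in 4 of the risen genes are shown because they let the motif copies be compared, each 5′ to 3′ on the gene's strand with the motif in capitals.
Nfkbia, chr12:55492647-55492696, minus strand, bases -49 to 1 of the start: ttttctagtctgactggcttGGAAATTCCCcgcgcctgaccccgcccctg
Nfkb2, chr19:46304706-46304755, plus strand, bases -31 to 19 of the start: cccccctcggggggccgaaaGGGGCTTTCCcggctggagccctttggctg
Tnfaip3, chr10:19015393-19015442, minus strand, bases -32 to 18 of the start: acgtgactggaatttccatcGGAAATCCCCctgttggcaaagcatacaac
Rel, chr11:23771031-23771080, minus strand, bases -111 to -62 of the start: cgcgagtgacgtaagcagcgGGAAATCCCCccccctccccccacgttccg
A match of letters is a description and not a measured site. Each stretch shown holds 1 copy, beside log2 changes that ran from 0.36 for Nfkb2 to 0.99 for Nfkbia.

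Target genes of CD40 and NF-κB were split between survival and surface genes that rose and several cytokine genes that fell. Of 35 tested, 22 were called higher and 8 lower, with a median log2 change of 0.59. The chemokine gene Ccl22 stood at 559.9, 595 and 578 CPM without CIT and 2837, 2906 and 2872 CPM with it, the second largest rise of any tested gene in CPM (2.31 ± 0.03, adjusted p = 4.22e-25). Vcam1, an adhesion molecule, was listed at 0 in the 3 unstimulated libraries and reached 5.22 ± 0.314 CPM with CIT, at least 56.6-fold higher than a floor of 12 counts over the group. The death receptor Fas rose from 4.65 to 15.7 CPM (1.76 ± 0.12), and the BCL2-type survival genes Bcl2a1d from 22.8 to 106 CPM (2.22 ± 0.05) and Bcl2l1 from 24.6 to 82.7 CPM (1.75 ± 0.06). The Bcl2a1 copies are nearly alike, so reads may be shared among them. Lowered members were the lymphotoxin and TNF genes Ltb, from 359 to 137 CPM (-1.39 ± 0.03), Tnf, from 26.4 to 11.4 CPM (-1.21 ± 0.12), and Lta, from 6.66 to 3.61 CPM (-0.88 ± 0.17), the chemokines Ccl3 (-2.47 ± 0.34) and Ccl4 (-2.04 ± 0.28), and the cytoskeletal regulator Plek, from 1085 to 400.2 CPM (-1.44 ± 0.03).

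In the cytokine arm the receptor gene and Stat6 were not called, while Stat3, Stat5a and Stat5b rose. Il4ra went from 55.4 ± 3.501 to 59.5 ± 1.16 CPM and Stat6 from 131 ± 4.25 to 126 ± 1.696 CPM, and neither was called (0.10 ± 0.06 and -0.05 ± 0.04). Stat5a stood at 31.3, 34.8 and 33.6 CPM without CIT and 245, 265 and 264 CPM with it, a 7.75-fold rise (2.95 ± 0.05, adjusted p = 5.89e-23) with the unstimulated libraries close together and far below. Its neighbour Stat5b rose from 75.7 to 255 CPM (1.75 ± 0.04), the kinase Jak2 from 30.2 ± 2.06 to 138 ± 6.47 CPM (2.19 ± 0.08) and Stat3 from 61.7 to 128 CPM (1.05 ± 0.05). The kinases that pair with the IL-4 receptor moved little, Jak1 by 0.26 ± 0.04 and Jak3 by 0.36 ± 0.05. The shared γ chain Il2rg fell by a log2 change of -0.32 ± 0.03, and the phosphatases Ptpn6 and Ptpn1 fell by log2 changes of -0.27 ± 0.03 and -0.31 ± 0.03. Over the 17 tested receptor, JAK and STAT genes 9 were called higher and 4 lower, with a median log2 change of 0.21.

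The feedback inhibitors rose with them. Cish, whose product blocks STAT5 at the receptor, stood at 1.48, 2.21 and 1.09 CPM without CIT and 75.3, 81.5 and 80.2 CPM with it, which is 49.5-fold higher with CIT (5.63 ± 0.18, adjusted p = 6.18e-11). Socs3 rose from 2.16 ± 0.544 to 11.9 ± 0.543 CPM (2.47 ± 0.20) and Socs1, an inhibitor of JAK kinases, from 38.9 ± 3.81 to 123 ± 4.77 CPM (1.66 ± 0.06). Of the 8 tested CISH and SOCS genes 7 were called higher. Socs5 was not called (-0.15 ± 0.11). The other 4 called members, Socs2, Socs4, Socs6 and Socs7, changed by log2 values between 0.15 and 0.31, so that the steep rises were those of Cish, Socs3 and Socs1. Some of these shallow calls hung on single libraries: Socs2 was lost without replicate 2 or 3 of sgCtr_no or 1 or 2 of sgCtr_CIT, Socs6 without replicate 1 of sgCtr_CIT, and Socs7 without replicate 1 or 2 of sgCtr_no or 3 of sgCtr_CIT (adjusted p = 0.0541 to 0.152). The STAT5-type motif TTCNNNGAA was held by 6.98% of the promoters of tested genes and by 2 of the 4 found for this list, those of Cish and Socs3. They are shown because these were the steepest rises of the list, with the motif in capitals.
Cish, chr9:107296639-107296678, plus strand, bases -20 to 20 of the start: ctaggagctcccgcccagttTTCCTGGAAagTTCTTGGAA
Socs3, chr11:117969492-117969540, minus strand, bases -174 to -126 of the start: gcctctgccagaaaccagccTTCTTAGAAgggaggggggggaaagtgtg
The Cish stretch holds 2 copies, and both lie at or just after the start.

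Il4i1, Nfil3 and Gfi1 rose among the IL-4 targets that are neither feedback inhibitors nor MHC genes. Il4i1, an amino acid oxidase induced by IL-4 in B cells, stood at 12.5, 14.01 and 17.2 CPM without CIT and 104, 127 and 128 CPM with it, with no overlap of the groups (3.03 ± 0.14, adjusted p = 5.09e-08). Nfil3, a transcription factor, rose from 26.4 ± 3.08 to 106 ± 2.61 CPM (2.00 ± 0.07). Gfi1, a repressor, rose from 1.09 to 3.18 CPM (1.54 ± 0.28). Of 25 tested targets, 15 were called higher and 4 lower, with a median log2 change of 1.54. The list shares Ciita, MHC class II genes, Cish, Socs1, Socs3, Ccl22 and Bcl2l1 with others described here. Lowered members were growth genes, the transferrin receptor Tfrc (-0.46 ± 0.03) and the amino acid transporter Slc7a5 (-0.53 ± 0.03) among them, with the growth factor Hbegf (-0.998 ± 0.26). The classical IL-4 marker Fcer2a (CD23) had too few counts to be tested.

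Both TGF-β receptor genes shown here and several inhibitors of the SMAD pathway rose. Tgfbr1 stood at 55.3, 60.5 and 57.1 CPM without CIT and 504, 534 and 513 CPM with it, an 8.96-fold rise (3.16 ± 0.04, adjusted p = 6.28e-25), and no library of either group came near the other group. Tgfbr2, its partner, rose from 88.8 ± 1.09 to 176 ± 5.099 CPM (0.99 ± 0.04). The inhibitors were Smad7, which rose from 22.5 ± 0.318 to 81.6 ± 8.01 CPM (1.86 ± 0.07), Smad6, from 1.07 ± 0.365 to 7.98 ± 0.416 CPM (2.91 ± 0.27), Skil, from 34.4 to 171 CPM (2.31 ± 0.05), Ski, from 52.6 to 158 CPM (1.59 ± 0.04), the ubiquitin ligase gene Smurf1, from 25.2 to 63.2 CPM (1.33 ± 0.08), and Ldlrad4, whose product keeps SMADs from the receptor, from 0.916 ± 0.512 to 41.4 ± 1.398 CPM (5.51 ± 0.38). Of the signal carriers, Smad3 fell from 16.4 ± 1.16 to 8.55 ± 0.317 CPM (-0.94 ± 0.11, adjusted p = 2.72e-07), while Smad2 and Smad4 were not called, at 0.00 ± 0.06 and -0.06 ± 0.06. Over the 31 tested genes of this list 17 were called higher and 1 lower, Smad3, with a median log2 change of 0.35.

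The SMAD-type palindrome GTCTAGAC, searched on both strands, was rare, in 0.260% of the promoters of tested genes. It was in 1 of 32 promoters found for this list, that of Smad6, a textbook SMAD target, which is why its start is shown with the motif in capitals.
Smad6, chr9:64022040-64022083, minus strand, bases -24 to 20 of the start: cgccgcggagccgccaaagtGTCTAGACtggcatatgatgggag

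TGF-β targets gave 16 called higher and 1 lower of 24 tested, with a median log2 change of 0.71. Spsb1, a ubiquitin ligase adaptor, was at 0, 0.316 and 0.3004 CPM without CIT and 60.5, 59.3 and 61.2 CPM with it, with the unstimulated libraries close to 0 (8.12 ± 0.26, adjusted p = 4.29e-11). Id2, an inhibitor of E proteins, rose from 6.27 ± 0.291 to 36.7 ± 1.44 CPM (2.55 ± 0.09), its relative Id3 from 43.8 to 69.7 CPM (0.67 ± 0.06) and the repressor Bhlhe40 from 112 to 352 CPM (1.65 ± 0.04). RUNX genes diverged: Runx3, the factor linked to IgA germline transcription, rose from 178 to 276 CPM (0.63 ± 0.03) and Runx2 from 16.4 to 27.1 CPM (0.72 ± 0.08), whereas Runx1 fell from 19.4 to 8.598 CPM (-1.18 ± 0.12, adjusted p = 3.06e-08). The cell cycle inhibitor Cdkn1a, a TGF-β target in many cell types, went from 11.4 ± 1.12 to 11.6 ± 1.36 CPM and was not called (0.02 ± 0.12).

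**Figure D2:**
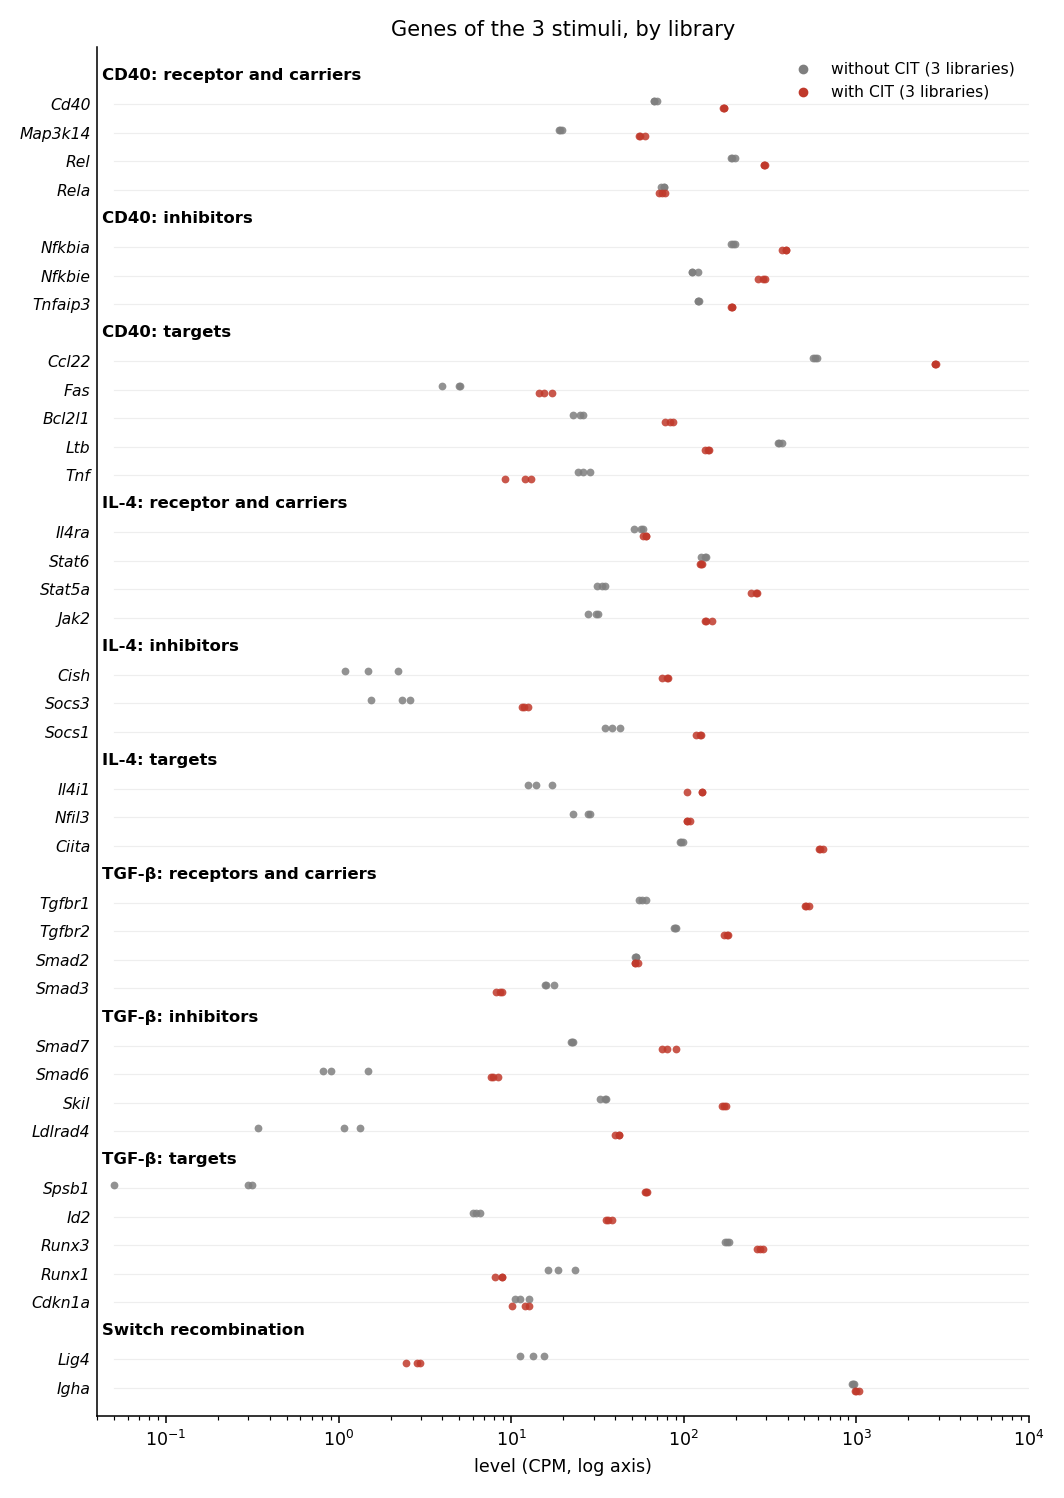
CPM of single libraries (log axis, values under 0.05 CPM drawn at 0.05) without CIT (grey) and with CIT (red) for receptors, signal carriers, inhibitors and targets of the 3 stimuli. Grey and red points of Stat6, Smad2 and Rela lie close together, and the inhibitors Cish, Socs3, Ldlrad4 and Smad6 show red points far to the right of grey ones.

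B cell and plasma cell transcription factor genes moved in both directions. Prdm1, which encodes BLIMP1, stood at 10.1, 10.1 and 7.83 CPM without CIT and 1.898, 2.72 and 1.23 CPM with it, lower in every stimulated library (-2.26 ± 0.23, adjusted p = 2.67e-08). Bach2, which represses Prdm1, rose from 99.8 ± 5.07 to 203 ± 3.81 CPM (1.02 ± 0.04). Ikzf3 (Aiolos) rose from 167 to 484 CPM (1.54 ± 0.03), Zbtb20 from 141 to 334 CPM (1.24 ± 0.07), Irf8 from 153 to 273 CPM (0.83 ± 0.04) and Irf4, which serves both switching and plasma cells, from 129 to 196 CPM (0.60 ± 0.04). Pax5 was not called (0.04 ± 0.04), and Xbp1 rose by 0.26 ± 0.03. Lowered factors beside Prdm1 included Ets1, from 355 to 211 CPM (-0.75 ± 0.03), Nfatc1 (-0.75 ± 0.03), Zeb2 (-0.72 ± 0.07) and Ikzf1 (-0.44 ± 0.03). Over 38 tested factors 19 were called higher and 11 lower, with a median log2 change of 0.11. The summed level of 6 plasma cell markers was 295 to 307 CPM without and 372 to 388 CPM with CIT; Xbp1 and Irf4 belong to it as well as Prdm1 and Jchain.

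RNA of B cell receptor, coreceptor and signalling genes moved in both directions, 16 of 39 tested genes higher and 14 lower around a median log2 change of -0.02. Cd22, an inhibitory coreceptor, stood at 114, 111 and 106 CPM without CIT and 7.499, 3.54 and 3.67 CPM with it, which is 22.6-fold lower with CIT (-4.50 ± 0.22, adjusted p = 2.35e-07), with every stimulated library far below. Cd24a fell from 1673 ± 7.49 to 476 ± 13.8 CPM (-1.81 ± 0.02), the largest fall of any tested gene in CPM, and the adaptor Bank1 from 32.2 ± 0.456 to 4.52 ± 0.807 CPM (-2.83 ± 0.13). Cd37, from 102 to 50.04 CPM (-1.03 ± 0.05), Dok3 (-1.02 ± 0.06), the kinase Syk, from 332 to 195 CPM (-0.77 ± 0.03), and Lyn (-0.35 ± 0.04) fell as well. Other inhibitory receptors rose: Cd72 from 61.8 to 121 CPM (0.97 ± 0.05), Siglecg from 58.8 to 111 CPM (0.92 ± 0.06), Fcgr2b from 25.2 to 46.2 CPM (0.88 ± 0.06) and Cd5 from 43.6 to 90.3 CPM (1.05 ± 0.05). Of the signalling part, the linker gene Blnk rose from 211 to 356 CPM (0.76 ± 0.04). Cd79b was not called (0.05 ± 0.03).

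Most genes of the MHC class II list rose. Ciita, the coactivator that switches them on, stood at 94.7, 98.4 and 95.8 CPM without CIT and 611, 637 and 613 CPM with it, with the 3 stimulated libraries all above the 3 others (2.69 ± 0.03, adjusted p = 7.31e-25). H2-Aa rose from 398 ± 8.01 to 1270 ± 13.2 CPM (1.67 ± 0.02), H2-Eb1 from 267 ± 8.35 to 924 ± 29.1 CPM (1.79 ± 0.03) and the invariant chain Cd74 from 2210 ± 38.9 to 4935 ± 146 CPM (1.16 ± 0.02), the largest rise of any tested gene in CPM. The peptide-loading genes H2-DMa (2.21 ± 0.04) and H2-DMb2 (2.03 ± 0.04) rose, and so did their inhibitors H2-Ob, from 14.5 to 136 CPM (3.24 ± 0.06), and H2-Oa (1.75 ± 0.07). The promoter-binding subunits did not move alike: Rfxank rose by 0.40 ± 0.07, Rfxap fell by a log2 change of -0.23 ± 0.04 and Rfx5 was not called (-0.02 ± 0.06). The protease Lgmn fell from 137 to 55.1 CPM (-1.31 ± 0.05). Of 19 tested genes 15 were called higher and 2 lower, with a median log2 change of 1.67. The class I list had 15 of 23 higher and 3 lower with a smaller median of 0.46, and its steepest named rises were the transporter Tap1, from 54.3 to 132 CPM (1.28 ± 0.04), and the coactivator Nlrc5, from 33.8 to 79.3 CPM (1.23 ± 0.05). The proteasome activator genes Psme1 (-0.67 ± 0.04) and Psme2 (-0.56 ± 0.04) fell.

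The cytokine genes Il10 and Il12a fell, while several chemoattractant receptors rose. Il10 stood at 87.6, 87.2 and 86.6 CPM without CIT and 5.99, 4.39 and 4.94 CPM with it, which is 17.1-fold lower with CIT (-4.09 ± 0.09, adjusted p = 2.14e-20), and its receptor gene Il10ra rose from 4.74 ± 1.304 to 15.5 ± 1.08 CPM (1.71 ± 0.17). Il12a fell from 6.13 to 0.708 CPM (-3.11 ± 0.24). Lif, listed at 0 without CIT, reached 1.599 ± 0.182 CPM, at least 17.3-fold above the floor. Of the chemoattractant receptors, Cxcr5 rose from 64.5 ± 4.698 to 149 ± 6.71 CPM (1.21 ± 0.05) and Gpr183 from 5.75 to 22.2 CPM (1.95 ± 0.13). Ccr6 rose from 1.81 to 7.02 CPM (1.95 ± 0.17) and Cxcr4 from 64.8 to 129.8 CPM (1.00 ± 0.04). The sphingosine phosphate receptors went apart, S1pr2 down from 19.2 to 5.64 CPM (-1.76 ± 0.11), S1pr3 up from 15.8 to 42.04 CPM (1.41 ± 0.08) and S1pr4 up from 1.42 to 6.22 CPM (2.12 ± 0.26). Over 42 tested genes 21 were called higher and 14 lower, with a median log2 change of 0.24.

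Among 36 tested costimulation and adhesion genes 23 were called higher and 6 lower, with a median log2 change of 0.51. Icosl, the ligand of the T cell receptor ICOS, rose from 5.004 ± 0.2499 to 25.7 ± 2.48 CPM (2.36 ± 0.11), Cd86 from 116 to 174 CPM (0.59 ± 0.04), Cd80 from 42.5 to 58.9 CPM (0.47 ± 0.06), the BAFF receptor Tnfrsf13c from 151 to 313 CPM (1.05 ± 0.03) and the tetraspanin Cd82 from 53.3 to 223 CPM (2.07 ± 0.04). Integrin genes diverged: Itgb1 fell from 568 ± 6.74 to 226 ± 6.81 CPM (-1.33 ± 0.03) while Itga6, from 14.2 to 41.4 CPM (1.55 ± 0.09), Itgal (0.62 ± 0.03) and Itga4 (0.49 ± 0.03) rose. Itgae, the CD103 gene induced by TGF-β, rose from 0.7804 to 2.36 CPM (1.60 ± 0.38). The 4-1BB ligand Tnfsf9 fell from 53.7 to 16.4 CPM (-1.72 ± 0.07).

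**Figure D3:**
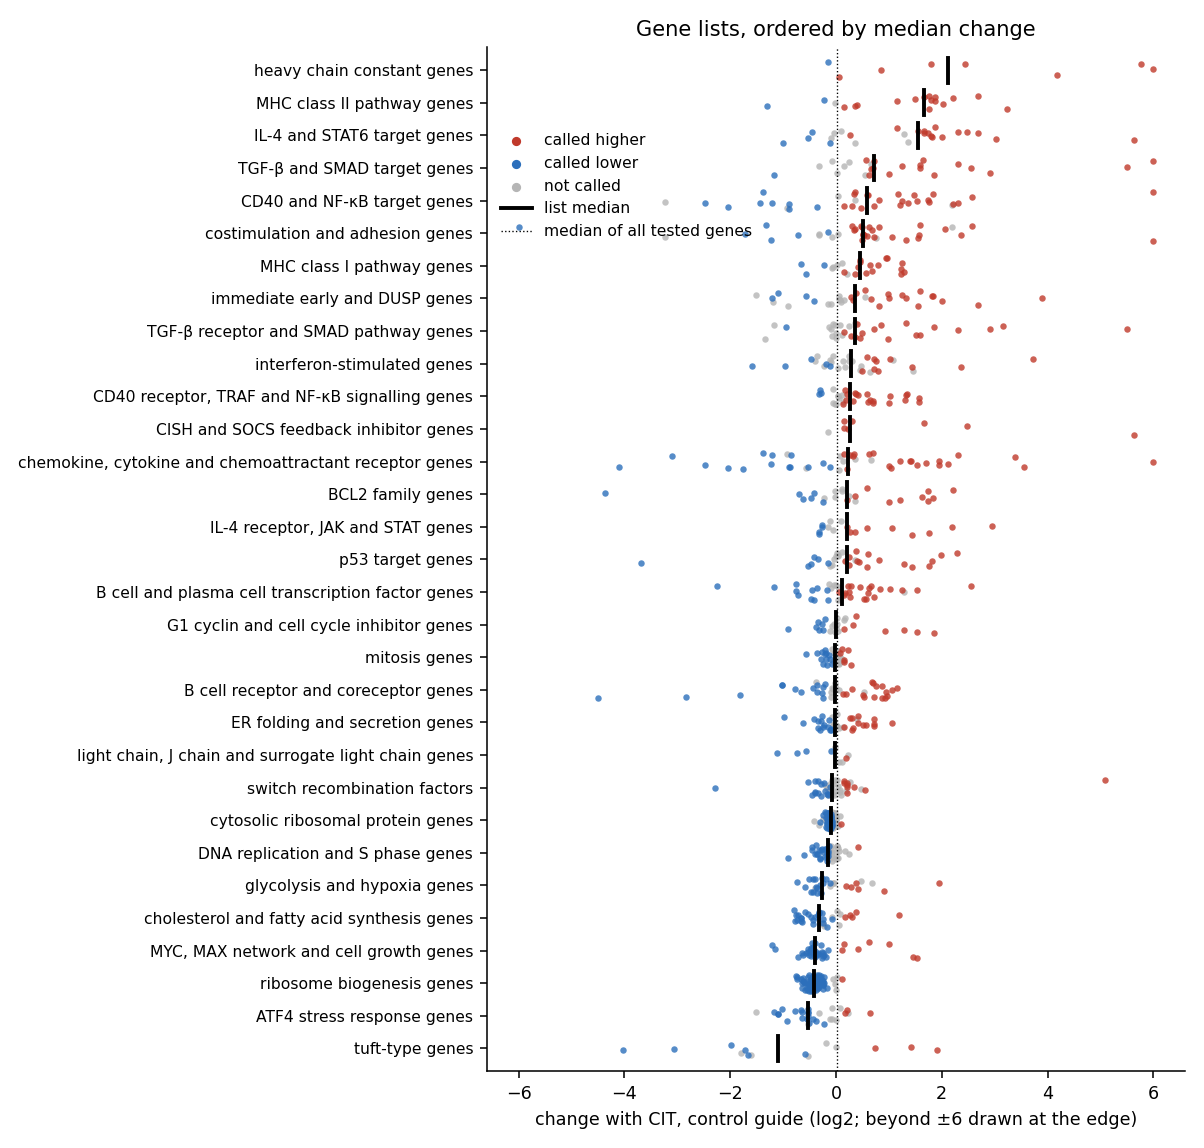
Log2 change after CIT (horizontal axis) of each tested member of the 31 gene lists, called higher in red, called lower in blue and not called in grey, with the list median as a black bar; the vertical line at 0.02 is the median of all tested genes, and members beyond ±6 are drawn at the edge. MHC class II, IL-4 and TGF-β target lists lie mostly to the right, and ribosome biogenesis, MYC network, ATF4 and cholesterol lists mostly to the left.

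BCL2 family genes moved in both directions, among survival genes and among their antagonists. Of 23 tested genes, 10 were called higher and 6 lower, with a median log2 change of 0.22. Bcl2l11, the BH3-only killer BIM, rose from 39.2 ± 2.602 to 121 ± 2.35 CPM (1.63 ± 0.06) and Bmf from 2.699 to 9.02 CPM (1.74 ± 0.20), at the same time as Bcl2l1 above. Mcl1 fell from 574 to 371 CPM (-0.63 ± 0.03), Bid from 176 to 109 CPM (-0.70 ± 0.04), Bax (-0.46 ± 0.04) and Bcl2 (-0.24 ± 0.05) as well. The p53 target list had 15 of 30 higher and 6 lower, but its core member Mdm2 moved by only 0.24 ± 0.05, and Plk2 fell from 44.1 ± 2.11 to 3.45 ± 1.11 CPM (-3.68 ± 0.16, adjusted p = 3.62e-12). Interferon-stimulated genes were mixed, 10 of 32 (31.2%) higher and 5 (15.6%) lower, beside 25.4% and 26.8% of protein-coding genes. The other 17 were not called, Isg15 and Usp18 among them. Of 32 tested immediate early and DUSP genes, 17 were called higher and 4 lower. The MAP kinase phosphatase Dusp4 rose from 2.77 ± 0.3004 to 41.2 ± 1.04 CPM (3.89 ± 0.17) and Dusp10 from 17.4 to 69.98 CPM (2.00 ± 0.09), whereas Dusp5 fell from 32.9 to 15.4 CPM (-1.09 ± 0.10). Junb rose from 119 to 284 CPM (1.26 ± 0.04) and Egr2 from 9.09 to 27.4 CPM (1.59 ± 0.10), and Jun was not called (0.15 ± 0.15).

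Most genes of the growth list fell, mainly by little. Myc, the growth-promoting transcription factor, stood at 454, 449.5 and 462 CPM without CIT and 204, 198 and 189.6 CPM with it, lower in each stimulated library (-1.21 ± 0.03, adjusted p = 2.22e-19). Its antagonists Mxd4, from 32.2 ± 1.91 to 87.9 ± 4.33 CPM (1.45 ± 0.06), and Mxd1, from 5.599 to 11.2 CPM (1.00 ± 0.15), rose, while Max (-0.28 ± 0.05) and Mnt (-0.39 ± 0.06) fell. Of 39 tested genes of the MYC network and cell growth, 7 were called higher and 32 lower, so every tested member was called, and the median log2 change was -0.40. Odc1, the first enzyme of polyamine synthesis, fell from 978 ± 11.9 to 442 ± 22.1 CPM (-1.15 ± 0.03), Srm, the next, from 243 to 147 CPM (-0.73 ± 0.03), and the nucleolar protein genes Ncl, from 2818 to 1960 CPM (-0.52 ± 0.02), and Npm1, from 3215 to 2422 CPM (-0.41 ± 0.02). Ccnd2, the G1 cyclin D2, went the other way, from 35.96 ± 2.06 to 104 ± 2.74 CPM (1.53 ± 0.05).

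Ribosome biogenesis was the most uniform list, with 74 of 79 tested genes called lower and 1 higher around a median log2 change of -0.42. Its members fell by less than 2-fold. Nop2, a methyltransferase of ribosomal RNA, stood at 225, 228 and 235 CPM without CIT and 131, 145 and 137 CPM with it, with no overlap (-0.73 ± 0.04, adjusted p = 7.13e-14). The helicase Ddx21 fell from 599.9 to 354 CPM (-0.76 ± 0.03), Nolc1 from 515 to 308 CPM (-0.74 ± 0.03) and Nop16 itself, with no guide against it, from 106 ± 2.35 to 77.1 ± 3.46 CPM (-0.46 ± 0.04, adjusted p = 8.33e-09). Ribosomal protein genes fell less, 42 of 76 called lower and 1 higher with a median of -0.10.

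The MYC-type E-box CACGTG is its own reverse complement and was held by 9.65% of the promoters of tested genes. It was in 12 of 44 promoters found for the MYC and growth list (27.3%) and in 13 of 77 for ribosome biogenesis (16.9%). Other lists reached up to 18.2%, for cholesterol and fatty acid synthesis, and several lay below 9.65%. The immediate early and DUSP list, with more rises than falls, had 16.7%. Among promoters of genes called at least 2-fold lower the E-box was in 7.44% and among those at least 2-fold higher in 8.35%. The genes at least 2-fold lower included 2 of the MYC and growth list and none of ribosome biogenesis. Their share therefore does not bear on those lists, and a link of the motif to the falls was not tested. Of the E-box genes, 3 that were lowered are shown, with each E-box in capitals, because they differ in the number of copies.
Cdk4, chr10:127063343-127063549, plus strand, bases -192 to 15 of the start: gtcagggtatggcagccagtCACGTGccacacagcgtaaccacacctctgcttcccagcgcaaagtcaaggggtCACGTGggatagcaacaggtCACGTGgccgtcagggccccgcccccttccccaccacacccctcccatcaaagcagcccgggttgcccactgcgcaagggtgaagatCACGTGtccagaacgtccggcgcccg
Nme1, chr11:93968029-93968074, minus strand, bases -49 to -4 of the start: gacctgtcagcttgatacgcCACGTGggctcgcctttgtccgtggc
Nop2, chr6:125131803-125131848, plus strand, bases -80 to -35 of the start: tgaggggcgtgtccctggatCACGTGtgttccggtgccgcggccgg
Cdk4, a G1 kinase, holds 4 copies and fell by a log2 change of -0.27 ± 0.03. Nme1, a nucleotide kinase, and Nop2 hold 1 each in the stretch shown and fell by -0.39 ± 0.04 and -0.73 ± 0.04 on the same scale.

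The cell cycle lists had smaller median changes than the ribosome biogenesis list, but single G1 genes moved further than any gene of that list. Of 43 tested S phase genes 24 were called lower and 1 higher with a median log2 change of -0.16. Ccne1, cyclin E1, stood at 52.1, 53.02 and 53.2 CPM without CIT and 31.00, 25.5 and 28.1 CPM with it (-0.91 ± 0.07, adjusted p = 3.79e-10), and the groups did not overlap. The licensing factor Cdt1 fell from 113 to 74.5 CPM (-0.60 ± 0.05) and Mcm2 from 401 to 306 CPM (-0.39 ± 0.03). Mitosis genes had 6 of 35 (17.1%) higher and 13 (37.1%) lower around -0.01, and the proliferation marker Mki67 was not called (0.05 ± 0.03). Of 24 tested G1 cyclins, kinases and inhibitors 7 (29.2%) were called in each direction, near the 25.4% higher and 26.8% lower of protein-coding genes. Ccng2, a cyclin of resting cells, rose from 16.5 ± 1.23 to 59.5 ± 6.33 CPM (1.85 ± 0.10), the CDK4 inhibitor Cdkn2d from 6.103 to 14.9 CPM (1.29 ± 0.16) and the pocket protein Rbl2 from 22.5 to 42.7 CPM (0.93 ± 0.08), while Cdkn1b fell by a log2 change of -0.21 ± 0.05. Btg1, an antiproliferative gene of resting lymphocytes, rose from 81.4 to 289 CPM (1.83 ± 0.04).

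**Figure D4:**
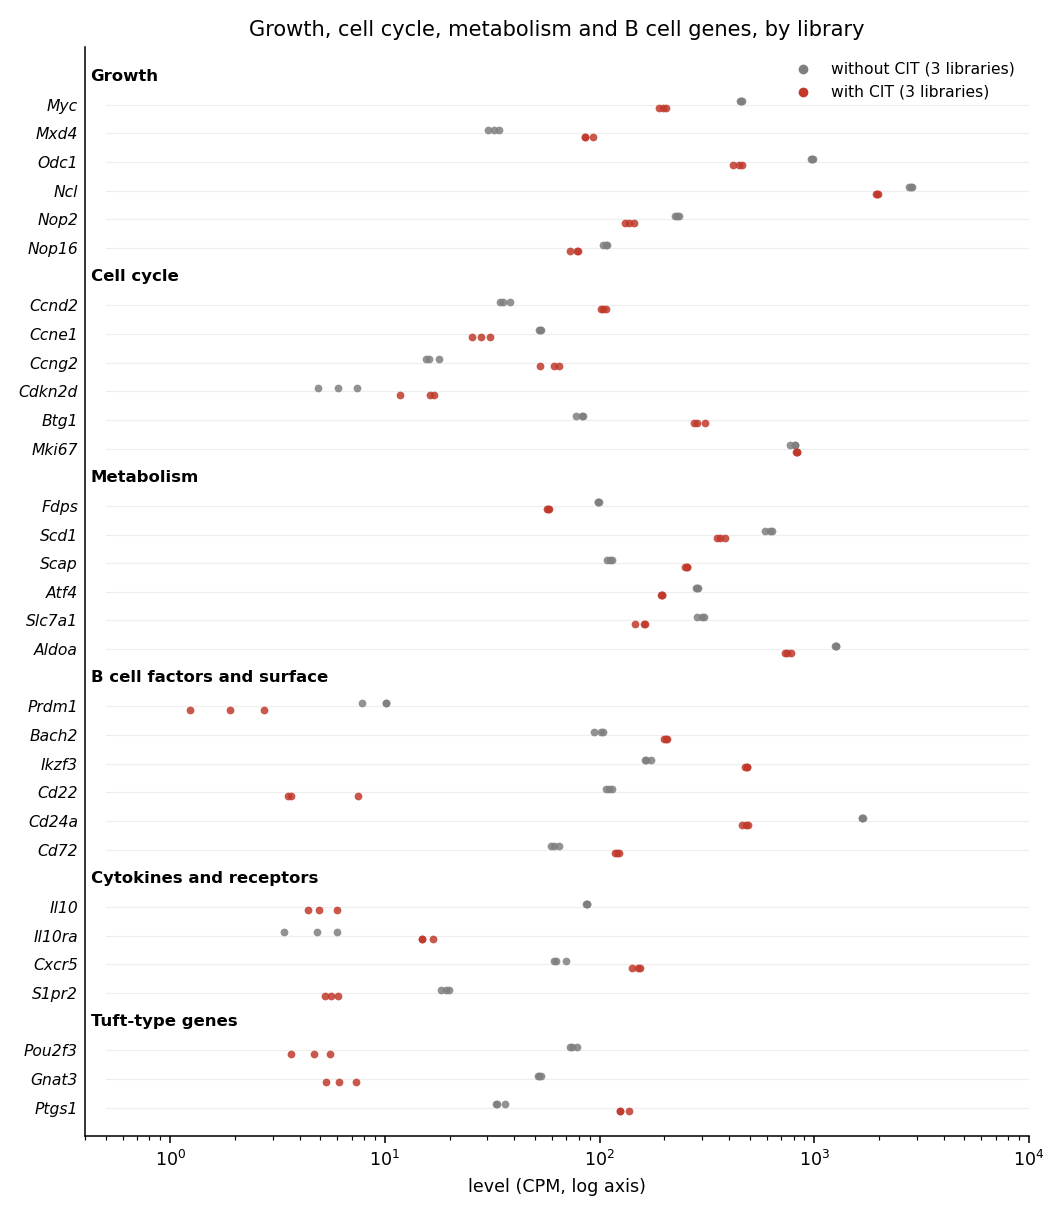
CPM of single libraries (log axis) without CIT (grey) and with CIT (red) for genes of growth, the cell cycle, metabolism and the B cell surface. Red points lie to the left of grey ones for Myc, Odc1, Nop2, Ccne1, Cd22 and Il10, and to the right for Mxd4, Ccnd2, Ccng2, Btg1 and Scap.

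Most tested genes of the cholesterol, ATF4 and glycolysis lists fell. Of 34 tested cholesterol and fatty acid synthesis genes 23 were called lower and 5 higher, with a median log2 change of -0.32. Fdps, which makes farnesyl pyrophosphate on the way to cholesterol, stood at 99.4, 98.5 and 98.7 CPM without CIT and 56.9, 58.3 and 57.4 CPM with it, lower in all 3 stimulated libraries (-0.78 ± 0.06, adjusted p = 8.53e-11). Scd1, the desaturase that makes monounsaturated fatty acids, fell from 615 to 366 CPM (-0.75 ± 0.03). The steepest change of the list was in the other direction, since Scap, which escorts the SREBP factors that drive these genes, rose from 111 ± 3.13 to 253 ± 2.85 CPM (1.19 ± 0.03), and the factor gene Srebf1 rose by 0.27 ± 0.05. ATF4 targets had 18 of 30 called lower and 3 higher with a median of -0.53. Atf4 fell from 284 to 195 CPM (-0.55 ± 0.03), the arginine transporter Slc7a1 from 297 to 157 CPM (-0.92 ± 0.04) and the translation inhibitor Eif4ebp1 from 25.8 to 11.4 CPM (-1.18 ± 0.10). Glycolysis and hypoxia genes had 16 of 28 lower and 6 higher with a median of -0.26, Aldoa falling from 1256 to 754 CPM (-0.74 ± 0.02) and Eno2 rising from 28.5 to 53.8 CPM (0.91 ± 0.08). ER folding and secretion genes had no common direction, 13 of 39 (33.3%) higher and 15 (38.5%) lower, beside 25.4% and 26.8% of protein-coding genes. There Sel1l, an ER degradation factor, fell from 316 to 159.7 CPM (-0.98 ± 0.03) and the stress kinase Eif2ak3 (PERK) rose from 40.1 to 83.6 CPM (1.06 ± 0.05).

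The unstimulated line also transcribed some genes best known from tuft cells, chemosensory cells of epithelia, and several of these fell. Pou2f3, the tuft cell transcription factor, stood at 74.5, 78.2 and 72.9 CPM without CIT and 5.53, 3.65 and 4.66 CPM with it, which is 16.3-fold lower with CIT (-4.03 ± 0.13, adjusted p = 2.97e-14). The taste G protein gene Gnat3 fell from 52.3 ± 0.786 to 6.27 ± 1.01 CPM (-3.06 ± 0.11) and Rgs13 from 279 to 84.7 CPM (-1.72 ± 0.05). Other members did not follow, since Ptgs1 rose from 34.2 to 128 CPM (1.91 ± 0.06) and Alox5ap rose from 8.25 to 22.1 CPM (1.42 ± 0.14). Of the 21 genes of this list 14 were tested, and 6 of these were called lower and 3 higher. The rest had too few counts to be tested. Dclk1, another gene known from tuft cells, was listed at 0 in all 6 libraries. The epithelial markers Epcam and Krt19 were listed at 0 in all 6 libraries, and the 5 epithelial markers summed to at most 0.351 CPM.

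Genes were also ranked without reference to a pathway. Adamtsl2, which encodes a secreted glycoprotein of the matrix, had the largest called log2 rise, from 0 counts to 45.1 CPM, at least 488-fold above the floor. Lrig1, a negative regulator of growth factor receptors, reached 14.5 ± 0.528 CPM from 5 counts over the unstimulated group, at least 157-fold. In all, 33 called genes went from at most 12 counts to at least 1 CPM, and 5 made the opposite passage, Hapln1, Dnah11, Ffar1 and Igkv1-88 among them, which were named after their values were seen. Ctsw, a cathepsin of lymphocytes, rose from 2.51 ± 0.814 to 93.5 ± 4.63 CPM (5.20 ± 0.16) and the interferon lambda receptor Ifnlr1 from 0.713 ± 0.322 to 15.3 ± 1.57 CPM (4.41 ± 0.25). Among other steep falls were those of Ehf, an epithelial ETS factor, from 52.7 ± 5.61 to 6.58 ± 1.58 CPM (-3.005 ± 0.15), the fatty acid receptor Cd36 from 28.9 ± 1.28 to 3.94 ± 1.22 CPM (-2.88 ± 0.14), Trib1 from 43.8 ± 0.724 to 8.19 ± 1.97 CPM (-2.42 ± 0.13) and Adap1 from 118 to 17.3 CPM (-2.77 ± 0.05).

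By the amount of RNA, called-higher genes took 18.5% of the counts without CIT and 26.7% with it, and called-lower genes 53.4% and 42.9%, a description of the genes that the test chose. Pde4dip, a scaffold of centrosome and Golgi, stood at 58.1, 66.04 and 58.7 CPM without CIT and 672, 703 and 716 CPM with it, from low to high in every library (3.52 ± 0.04). The cytoskeletal genes Actb, from 3331 to 3895 CPM (0.23 ± 0.02), and Tmsb4x, from 678 to 1177 CPM (0.80 ± 0.03), Syngr2, from 181 to 714 CPM (1.98 ± 0.03), and Sema4d, a semaphorin of lymphocytes, from 145 to 648 CPM (2.17 ± 0.03), also rose by large amounts. Chaperone genes were among the largest falls in CPM, Hspa8 from 3552 to 2554 CPM (-0.48 ± 0.03) and Hsp90ab1 from 4938 to 4136 CPM (-0.26 ± 0.02), with the calcium pump Atp2a3 from 656 ± 1.32 to 109 ± 7.82 CPM (-2.59 ± 0.04).

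The same stimulation in sgNop16 cells used other libraries, so the responses can be set side by side. With that guide 6343 genes were called (37.8%). The 2 responses differed at an adjusted p under 0.05 for 475 genes (2.83%). Of the 236 tested genes named in the text 60 were among them: 33 rose more, 15 fell more, 3 rose less and 9 fell less with the control guide. Genes were named mainly for large changes with the control guide, whose libraries also enter the difference. The choice itself therefore favours larger responses with that guide, and the split was not counted over all 475 genes. Of the 222 named genes called with the control guide, 216 were called in the same direction with the Nop16 guide. That count also follows the choice of genes with large changes, and the share over all genes called with the control guide was not counted. The MHC class II list held 10 genes whose responses differed between the guides among 19 tested. Ciita rose by 2.69 ± 0.03 with the control guide and by 2.42 ± 0.03 with the Nop16 guide (difference 0.27 ± 0.04, adjusted p = 0.000928). H2-Ob rose by 3.24 ± 0.06 and 2.67 ± 0.05 (difference 0.56 ± 0.07). Myc fell by log2 changes of -1.21 ± 0.03 and -0.92 ± 0.03 (difference -0.29 ± 0.04), and Pou2f3 by -4.03 ± 0.13 and -5.07 ± 0.15 (difference 1.04 ± 0.20). Igha rose by 0.06 ± 0.02 and 0.12 ± 0.02, with no called difference (-0.06 ± 0.03, adjusted p = 0.481).

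**Figure D5:**
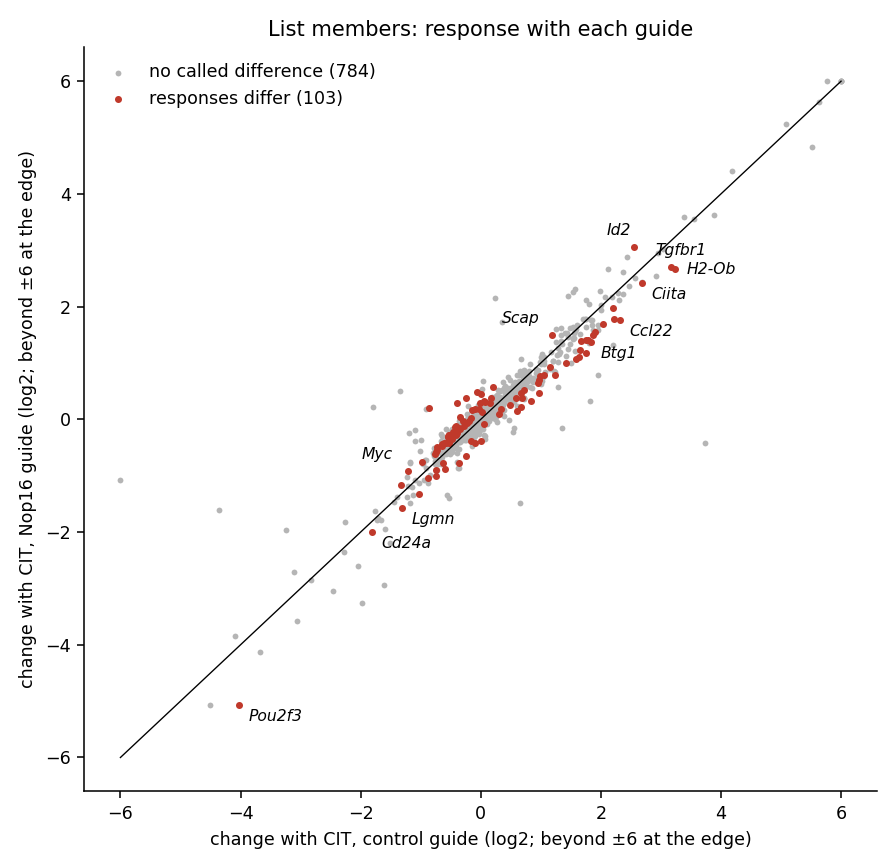
Log2 change after CIT with the control guide (horizontal axis) against that with the Nop16 guide (vertical axis) for the tested members of the 31 lists; red points are those whose responses differed at an adjusted p under 0.05, and the line marks equal responses. Most members lie near the line. Ciita, H2-Ob and Tgfbr1 lie below it on the right and Myc above it on the left, where the response was larger with the control guide, while Pou2f3, Cd24a and Id2 lie on the other side.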

How the data were processed

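RNA of CH12F3-2A cells was sequenced in 12 libraries, 6 of them with the control guide, after a directional kit on total RNA, per the labels' protocols. The submitters' processing notes list HISAT2 2.2.1, StringTie 2.2.1 and build GRCm39 of the mouse genome, with no roles. How counting treated strand, and with which annotation, these sources do not say. The table the authors deposited gives estimated counts, in whole numbers without scaling, of 56941 Ensembl genes. Values of 4 were in excess, so that 1 fragment may be worth about 4 counts, which no source states. Symbols were matched for 51948 genes through an annotation of build GRCm38, while 4993 stayed without one, with 0.365% or less of any library. Promoters come from RefSeq with build GRCm38.p6, found for 10298 of the tested genes and matched by symbol. No coordinates are given for the counted genes, because the builds differ. Promoters on 1 chromosome were not analysed here.

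All 12 libraries entered 1 edgeR 4.0.16 model (R 4.3.3) with a mean per group, TMM factors, filterByExpr and robust quasi-likelihood F tests, and p-values were adjusted by the Benjamini-Hochberg method over 16794 genes. Depth was 39690555 to 47175155 counts per control-guide library, and the median SE of a log2 change was 0.12. In data simulated for the CIT response with the control guide on 16794 genes, 73 of 100 genes changed 1.5-fold and 95 of 100 changed 2-fold were recovered. Changed genes were drawn only from those with a mean of at least 1 CPM, and far fewer changed than were called in the real data. Of the unchanged genes 13 were called. Where a group held at most 12 counts (3 fragments of 4 counts), the fold is a lower bound against those 12, for counting error only. Members and gene lists were chosen with earlier results of these data known. The 31 lists held 966 genes. Genes could be named if on a list, at most about 8 each way per list, or among the 25 largest called log2 changes at 5 CPM or more in the higher group without overlap of libraries, or the 15 largest changes in CPM, each way. Others are said to be chosen after their values were seen, and some genes are not reported here. Alternatives were RLE factors, library totals, no filter, a minimum of 5 CPM in 3 libraries, a block for the replicate number, only the control-guide libraries, a test against a 1.5-fold change, counts divided by 4, DESeq2 1.42.0 and leaving out each library. Among named genes, Aars, Bax, Exosc6, Nme1 and Pde2a share at least 10% of exon bases with a gene on the same strand. Alox5ap, Apex1, Bid, Cd72, Cdk4, Dusp5, H2-DMa, H2-Oa, Il4i1, Ldlrad4, Nfkb2, Nfkbib, Rbl2, Rfx5, Rfxank, Scap and Tnfsf9 share it with one on the opposite strand, so their reads may be mixed.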

Additional observations from a re-analysis of the deposited data

Results flagged for a closer look

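The response to CIT differed between the guides, by a test of the difference itself in edgeR's model (adjusted p under 0.05), for the genes in this section. Values are log2 response with the control guide minus log2 response with the Nop16 guide, ± SE, so that a positive value is a larger rise or a smaller fall with the control guide. In the MHC class II pathway the rises of H2-Oa (0.57 ± 0.10), H2-Ob (0.56 ± 0.07), H2-Eb1 (0.39 ± 0.04), H2-DMb2 (0.34 ± 0.05), H2-Aa (0.28 ± 0.03), Ciita (0.27 ± 0.04), H2-DMa (0.24 ± 0.06) and Cd74 (0.23 ± 0.03) were larger with the control guide. Larger rises with it were also found for Tnni1 (0.68 ± 0.16), Ccl22 (0.56 ± 0.03), Egr2 (0.53 ± 0.14), Bcl2l11 (0.52 ± 0.08), Irf8 (0.52 ± 0.06), Rel (0.46 ± 0.05), Tgfbr1 (0.46 ± 0.05), Btg1 (0.46 ± 0.06), Nlrc5 (0.45 ± 0.07), Id3 (0.45 ± 0.08), Bcl2a1d (0.44 ± 0.07), Bhlhe40 (0.43 ± 0.05) and S1pr3 (0.40 ± 0.11). With smaller differences they were found for Pde4dip (0.37 ± 0.05), Ptgs1 (0.36 ± 0.08), Bcl2l1 (0.34 ± 0.08), B4galt1 (0.33 ± 0.05), Eif2ak3 (0.27 ± 0.07), Cd72 (0.27 ± 0.06), Itga4 (0.24 ± 0.04), Tgfbr2 (0.22 ± 0.05), Socs4 (0.21 ± 0.05), Cd86 (0.21 ± 0.05), Tmsb4x (0.20 ± 0.04) and Sema4d (0.15 ± 0.04).

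Larger falls with the control guide were found for Adap1 (-0.39 ± 0.07), Myc (-0.29 ± 0.04), Slc7a5 (-0.24 ± 0.05), Atf4 (-0.24 ± 0.04), Srm (-0.24 ± 0.04), Sel1l (-0.22 ± 0.05), Nop2 (-0.19 ± 0.05), Itgb1 (-0.17 ± 0.04), Nolc1 (-0.16 ± 0.04), Cdk4 (-0.15 ± 0.04), Ddx21 (-0.15 ± 0.04), Hspa8 (-0.14 ± 0.04), Npm1 (-0.13 ± 0.03), Hsp90ab1 (-0.12 ± 0.02) and Ncl (-0.11 ± 0.03). Rises were smaller with it for Susd2 (-0.84 ± 0.16), Id2 (-0.51 ± 0.12) and Scap (-0.31 ± 0.05). Falls were smaller with it for Pou2f3 (1.04 ± 0.20), Atp2a3 (0.50 ± 0.06), Dok3 (0.31 ± 0.08), Wipf3 (0.28 ± 0.07), Lgmn (0.27 ± 0.07), Scd1 (0.25 ± 0.05), Cd24a (0.18 ± 0.03), Mcl1 (0.15 ± 0.04) and Nfatc1 (0.15 ± 0.04). Among these, Pou2f3 and Adap1 fell steeply with both guides. Myc and several growth genes fell with both guides, and fell further with the control guide. All groups had 3 libraries, so no single library was set apart by a test for outlying values.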

How the results depend on the processing

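Of 236 named genes, 222 were called, and 152 of these were called in the same direction under every one of 15 settings. The test against a 1.5-fold change, which asks for more, ended 70 of the calls; every other setting together ended those of Exosc6, Igha, Pde2a, Socs2, Socs6, Socs7 and Traf3. Of the 14 not called, Mki67 and Cd79b were called with library totals or the filter of 5 CPM. Rela, Rfx5, Smad2 and Cdkn1a, all not called, changed sign: Rela to 0.0084 and Rfx5 to 0.0099 with library totals, Smad2 to -0.0012 without the filter, and, with 1 library left out, all 4 over ranges of -0.056 to 0.00075 for Rela, -0.076 to 0.023 for Rfx5, -0.020 to 0.013 for Smad2 and -0.048 to 0.11 for Cdkn1a. The cause was not tested.

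The filter of 5 CPM, which tests fewer genes, left 531 genes at least 2-fold higher and 182 lower. Against a 1.5-fold change 1348 genes were called, 973 higher and 375 lower. DESeq2 called 1014 genes for a difference between the guides, against 475; the cause was not tested. With 1 library left out, 6436 to 6527 genes were called, 3129 to 3225 higher and 3266 to 3359 lower, 990 to 1048 at least 2-fold higher and 324 to 362 lower, and 305 to 389 differed between the guides, fewest without sgNop16_no replicate 1 (305) and sgNop16_CIT replicate 2 (306). Library totals moved the median of all genes from 0.02 to 0.05 and the called split to 3815 higher and 3163 lower.

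Deviations of same-numbered libraries from their group means, over all tested genes, correlated at -0.0038, -0.032 and -0.0080. The labels do not say that equal numbers mark a shared culture or day, and whether they do was not tested. With the replicate block the test called 6932 genes, 3423 of them higher and 3509 lower, with 1052 and 334 past 2-fold, and 407 differed between the guides. At this depth genes under 1 CPM carry the widest errors, and a 1.5-fold change can be missed.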

Other observations

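Some genes outside the lists, best known from striated muscle, were named after their values were seen, and muscle genes as a group were not counted or tested. Tnni1, slow skeletal troponin I, stood at 1.38, 1.11 and 1.01 CPM without CIT and 82.99, 82.5 and 86.3 CPM with it, with no overlap between the groups (6.18 ± 0.11, adjusted p = 4.15e-22). Smyd1, a methyltransferase of heart and skeletal muscle, and Csrp3, muscle LIM protein, were listed at 0 in the unstimulated libraries and reached 4.03 ± 0.555 and 2.86 ± 0.226 CPM, at least 43.5-fold and 31.1-fold above the floor of 12 counts. Myl4, an atrial myosin light chain, went the other way, from 8.78 ± 0.783 to 1.403 ± 0.3302 CPM (-2.64 ± 0.18).

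Of other genes outside the lists, B4galt1, a galactosyltransferase of the Golgi, rose from 126 ± 1.85 to 599.7 ± 19.9 CPM (2.26 ± 0.03), and Susd2, a surface protein, from 1.51 ± 0.122 to 35.5 ± 2.595 CPM (4.55 ± 0.11). Wipf3, an actin regulator, fell from 134 ± 1.89 to 23.6 ± 0.894 CPM (-2.51 ± 0.05) and the transcription factor St18 from 47.9 ± 3.81 to 9.35 ± 1.31 CPM (-2.36 ± 0.10). The called fall of Exosc6 (-5.33 ± 1.51) rested on uneven libraries, at 10.1, 0.767 and 10.7 CPM without CIT and 0.229, 0.274 and 0.02197 CPM with it, so that unstimulated replicate 2 lay near the stimulated ones. All of the annotated exons of this gene lie within those of Aars on the same strand. Pde2a, which shares 64.3% of its exon bases with Gm45837, was uneven among the stimulated libraries, at 68.4, 62.6 and 57.3 CPM without CIT and 0.823, 10.7 and 0.0439 CPM with it. The Exosc6 call was lost without replicate 1 or 3 of sgCtr_no or without any 1 stimulated replicate (adjusted p = 0.0502 to 0.0712). The Pde2a call was lost without replicate 1 of either group or with only these 6 libraries in the fit (adjusted p = 0.0513 to 0.063).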
